A study of Danio rerio with 36 samples.

Results

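The Tie receptors and their ligands, the angiopoietins, were followed in the endothelial translatome of adult AngioTag zebrafish as 5 genes of the 32520 in the count table. They were taken from the table by gene symbol: tie1 (ENSDARG00000004105) and tek (ENSDARG00000028663) encode the receptors, and angpt1 (ENSDARG00000030364), angpt2a (ENSDARG00000014946) and angpt2b (ENSDARG00000053906) the ligands. All libraries came from adult fish carrying Tg(kdrl:egfp-2a-rpl10a3xHA)y530, in which the endothelial kdrl promoter drives EGFP and an HA-tagged ribosomal protein, Rpl10a. Translating ribosome affinity purification (TRAP) with an αHA antibody gave the pulldown, the mRNA held by tagged ribosomes, and the RNA of the same lysate before purification gave the input. Pulldown and input of skin, muscle and whole fish were each sequenced in 3 replicates, and each replicate was a pool from 4 fish. No treatment is given in the labels, and libraries from fish without the tag were not analysed here, so mRNA that sticks to beads or antibody was not measured. Liver, heart and brain are not analysed here.

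Tie1 and Tek (Tie2) are receptor tyrosine kinases found mostly on endothelial cells. In mammals, Angpt1 from mural and other perivascular cells activates Tek and quiets the vessel wall, whereas Angpt2, made largely by endothelial cells, acts as a weak or opposing ligand depending on context. Tie1 has no well-established angiopoietin ligand of its own and forms complexes with Tek that adjust its signal.

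The 18 libraries held 9202302 to 26255588 counts. The whole fish pulldowns stood apart, with 15203 to 17439 genes detected and 53.8% to 76.2% of their counts on ENSDARG00000080337, whose counts made up 6.50% to 27.6% of the libraries it led elsewhere. The biological coefficient of variation was 0.849 in the whole fish fit, against 0.273 in skin and 0.327 in muscle. kdrl, whose promoter drives the tag, and cdh5, an endothelial marker, were higher in the pulldown than in the input in all 3 tissues. The log2 fold changes were 3.34 to 5.43 for kdrl and 3.90 to 6.33 for cdh5. Skin replicate 2 differed from the other skin replicates in the letter of its columns. Pulldown and input of a replicate come from the same lysate, so the number of tagged cells is the same in both. Between tissues, fewer cells of a type and less RNA per cell cannot be told apart in these bulk samples.

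The first comparison asked which members were enriched on endothelial ribosomes of each tissue. A gene was called where its adjusted p in edgeR's one-sided quasi-likelihood test was under 0.05 and its log2 fold change was at least 1.2. Both receptors were called higher in the pulldown of every tissue, angpt2a was called for muscle and whole fish, and angpt1 and angpt2b were called in none. In skin 2 of the 4 members tested were called higher, where 21.5% of all genes tested were. The count was 3 of 4 in muscle, against 22.8% of all genes, and 3 of 3 in the whole fish, against 11.3%. No member was called lower, a call made for 18.2%, 21.0% and 15.5% of all genes in the same order. Members that failed the filter on low counts were angpt2b in all 3 tissues and angpt1 in the whole fish.

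tie1 was close to uniform across the skin pulldowns, at 54.3, 52.6 and 57.6 CPM (counts scaled to library size, scaled by TMM within a tissue), and its skin inputs held 3.90, 5.26 and 3.07 CPM. In muscle the pulldowns of tie1 held 114, 143 and 150 CPM and the inputs 3.31, 4.18 and 4.46 CPM. For the whole fish, tie1 reached 48, 26.5 and 60 CPM in the pulldowns against 1.34, 1.61 and 3.37 CPM in the inputs. The lowest pulldown library lay above the highest input library in each tissue, an order seen for 33.8% of all genes tested in skin, 33.4% in muscle and 18.6% in whole fish. tie1 had log2 fold changes of 3.75 ± 0.24 (SE) for skin, 5.09 ± 0.28 for muscle and 4.41 ± 0.61 for the whole fish, with adjusted p of 2.22e-06, 3.53e-06 and 0.00247 in edgeR. As a rank among all genes tested, 1.15% of genes had a larger increase than tie1 for skin, 0.283% for muscle and 2.19% for the whole fish.

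tek spread more between pulldown libraries of the whole fish than between those of the organs. Its skin pulldowns held 54.1, 44.9 and 67.3 CPM, and its skin inputs 2.60, 2.84 and 4.81 CPM. The muscle pulldowns of tek held 109, 98.3 and 142 CPM, with 4.61, 3.84 and 4.78 CPM in the inputs. Whole fish pulldowns of tek held 190, 54.4 and 260 CPM, with replicate 2 well below the others, and the inputs held 0.978, 2.22 and 2.77 CPM. Pulldown lay above input without overlap in each tissue, as for the 33.8%, 33.4% and 18.6% of all genes given for tie1. tek had log2 fold changes of 4 ± 0.29 for skin, 4.71 ± 0.28 for muscle and 6.40 ± 0.78 for the whole fish (adjusted p = 3.34e-06, 3.53e-06 and 0.0016, edgeR). Without whole fish pulldown replicate 3 the whole fish value was 5.77.

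**Figure D1:**
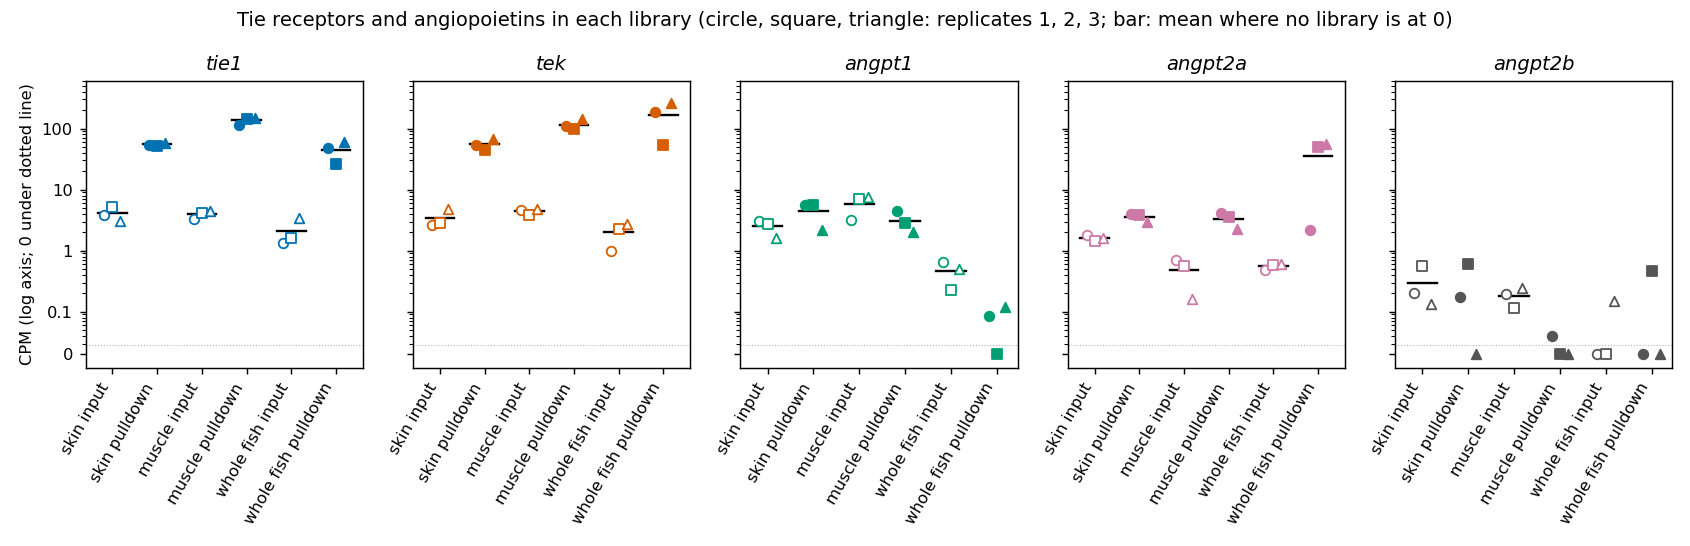
CPM (log axis, TMM within a tissue) of the 5 members in inputs (open symbols) and pulldowns (filled symbols) of skin, muscle and whole fish; circle, square and triangle are replicates 1, 2 and 3, bars are means of 3 where no library is at 0, and libraries at 0 lie under the dotted line. tie1 and tek separate pulldown from input in each tissue, while angpt1 overlaps in skin and muscle and angpt2b stays under 1 CPM throughout.

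The receptors were then set beside a list of 21 endothelial genes, of which 18 were matched. Median log2 fold changes of the list were 3.26 (skin), 3.99 (muscle) and 3.98 (whole fish). tie1 stood above that median by 0.49, 1.1 and 0.43 in these tissues, and tek by 0.74, 0.72 and 2.42. The list genes with a larger increase than tie1 numbered 5 of 18 (skin), 3 of 18 (muscle) and 8 of 17 (whole fish), and those with a larger increase than tek 4, 4 and 3. angpt2a fell short of the list median by 2.12 in skin and 1.24 in muscle and exceeded it by 2.03 in the whole fish. These differences lie within a fit, so scaling between libraries does not alter them, and they were not tested.

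**Figure D2:**
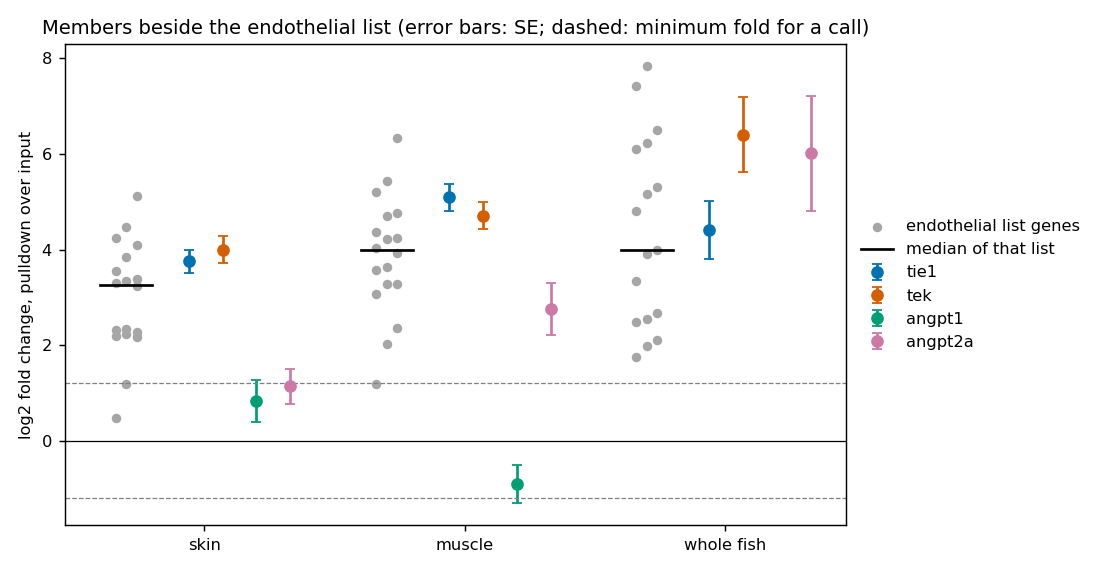
log2 fold change of pulldown over input (y axis) for the endothelial list (grey points, black line at the median) and for tie1, tek, angpt1 and angpt2a (coloured points, error bars are SE) in skin, muscle and whole fish. tie1 and tek lie above the list's median in each tissue, angpt1 at 0.84 in skin and -0.90 in muscle.

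angpt2a, a ligand that endothelial cells make in mammals, was at a few CPM in skin and muscle, and its pulldown lay above its input without overlap in each tissue, against the same all-gene shares of 33.8%, 33.4% and 18.6%. In skin the pulldowns held 3.95, 3.77 and 3.00 CPM from 39 to 50 counts, and the inputs 1.80, 1.45 and 1.60 CPM. The log2 fold change of 1.14 ± 0.36 had an adjusted p of 0.0167 in edgeR but missed the minimum of 1.2, so that angpt2a was not called in skin. It reached 1.2 without skin pulldown replicate 3 and 1.23 with a filter of 10 counts in every library, and was then called. In muscle angpt2a held 4.06, 3.59 and 2.23 CPM in the pulldowns and 0.714, 0.564 and 0.162 CPM in the inputs, from only 2 to 11 counts. This increase of 2.75 ± 0.54 passed the test (adjusted p = 0.00157, edgeR) and was between 2.35 and 3.23 when any library was left out.

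angpt2a differed widely between the pulldown libraries of the whole fish. Pulldown replicate 1 held 2.18 CPM (26 counts), replicates 2 and 3 held 49.8 and 55.9 CPM (546 and 945 counts), and the inputs held 0.489, 0.574 and 0.594 CPM. The fitted log2 fold change was 6.01 ± 1.21 (adjusted p = 0.0119, edgeR). It was 5.38 without pulldown replicate 3, and the call was lost without input replicate 1, 2 or 3, at adjusted p of 0.0808, 0.0711 and 0.0713, while the fold stayed at 5.74 to 6.03. The share of all counts on ENSDARG00000080337 was 65.6% in replicate 1, 76.2% in replicate 2 and 53.8% in replicate 3, and its part in the spread was not tested.

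angpt1, the activating ligand of Tek, was not called in skin or muscle. Its skin pulldowns held 5.58, 5.58 and 2.15 CPM and its skin inputs 3.10, 2.77 and 1.60 CPM. In muscle the pulldowns held 4.41, 2.83 and 2.05 CPM and the inputs 3.18, 6.89 and 7.46 CPM. The groups overlapped in both organs, although in skin the pulldown was the higher library in all 3 pairs of the same replicate number, and in muscle in 1 of 3. Neither the log2 fold change of 0.84 ± 0.44 in skin nor that of -0.90 ± 0.40 in muscle passed the test (adjusted p = 0.113 for higher and 0.0882 for lower, edgeR). Without muscle input replicate 1 the muscle value was -1.22 at an adjusted p of 0.0252.

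In the whole fish angpt1 was counted 1, 0 and 2 times in the pulldowns and 16, 6 and 10 times in the inputs. All pulldown libraries lay below all input libraries, an order seen for 31.8% of all genes tested in that tissue, although angpt1 itself did not pass the filter there. Per scaled library size the inputs held 5.99 times the pulldown level, with an exact 95% interval of 1.87 to 30.6 that covers counting error only. The library at 0 allows up to 0.274 CPM, the level of 3 counts.

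Mural cells are a known source of Angpt1 in mammals, so their markers were read beside it. The summed level of the 9 mural genes matched was higher in the pulldowns, at 830 to 1500 CPM against 350 to 395 CPM in skin inputs and at 2060 to 4450 CPM against 407 to 651 CPM in muscle inputs. None of the 9 was at 0 throughout a group. The sum of fibroblast markers, 7 genes, was lower in the pulldowns, at 1120 to 1230 CPM against 1690 to 2310 CPM in skin and at 227 to 281 CPM against 708 to 1170 CPM in muscle. Of the 7, 3 were called lower in skin and 5 in muscle, where 18.2% and 21.0% of all genes were, and none higher. Their log2 fold changes in skin ran from -3.06 to 0.77. The mural sums rest on few genes. In skin 3 of the 8 mural genes tested were called higher and 1 lower, with a median of 0.89, where 21.5% and 18.2% of all genes were called. In muscle 2 of 8 were called higher, myh11a (2.09) and rgs5a (3.44), and 2 lower, acta2 (-3.31) and abcc9 (-2.17), with a median of -0.72, where 22.8% and 21.0% of all genes were. pdgfrb, a receptor gene of the mural list, was called in no tissue (skin 0.17, muscle -1.03, whole fish -2.53 on the log2 scale). Its skin groups overlapped. Its muscle pulldowns, at 9.14 to 12.1 CPM, lay below its inputs at 17.2 to 28.4 CPM, an order seen for 29.2% of all genes tested in muscle. Its whole fish pulldowns, at 2.43, 0.0912 and 2.31 CPM, lay below its inputs at 9.41, 7.20 and 11.5 CPM, an order seen for 31.8% of all genes tested there. In the whole fish the mural sum was 1280 to 2980 CPM in pulldowns and 203 to 295 CPM in inputs, and the fibroblast sum 104 to 194 CPM and 388 to 632 CPM, with 2 of the 7 fibroblast genes at 0 in all pulldowns. There 2 of 7 mural genes were called higher and 1 lower, with a median of -0.19, where 11.3% and 15.5% of all genes were called. The part of mural or fibroblast mRNA in the angpt1 values was not tested.

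angpt2b was close to the detection limit. Its counts were 2, 8 and 0 in the skin pulldowns and 2, 8 and 2 in the skin inputs, 1, 0 and 0 in the muscle pulldowns and 3, 1 and 3 in the muscle inputs. The whole fish pulldowns held 0, 5 and 0 counts and the inputs 0, 0 and 3. In muscle the pulldowns lay below the inputs in CPM, but the highest pulldown and the lowest input each held 1 count. That order was seen for 29.2% of all genes tested there, although angpt2b itself did not pass the filter. In the other tissues the groups overlapped. No library reached 1 CPM, and a count of 0 allows up to 0.109 to 0.252 CPM in the 7 libraries that had it. With at most 8 counts in any library, no test was made and no difference was detectable at this depth.

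Of the reads on the angpt2 pair, nearly all in the pulldowns were angpt2a. The share of angpt2a in skin was 95.8%, 86.2% and 100% in the pulldowns and 90.0%, 72.4% and 92.3% in the inputs. Skin pulldown replicate 2, the lowest pulldown, had an exact Clopper-Pearson 95% interval of 74.6% to 93.9%, which like the others here covers counting error only. Muscle and whole fish pulldowns lay between 99% and 100%. Muscle inputs gave 78.6%, 83.3% and 40.0% from 14, 6 and 5 reads, and their intervals spanned 5.27% to 99.6%.

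The next comparison asked whether enrichment differed between skin and muscle, as an interaction in the fit of their 12 libraries, tested two-sided. Enrichment of tie1 was lower in skin by 1.3 ± 0.34 on the log2 scale (skin minus muscle -1.3, adjusted p = 0.0125, edgeR), 1 of the 4 members tested, where 12.4% of all genes were called lower. The difference of tie1 stayed between -1.60 and -1.21 when any library was left out. Without both skin libraries of replicate 2 it was -1.03 at an adjusted p of 0.0774. tek had a difference of -0.66, which did not pass, with an adjusted p of 0.124 to 0.468 over the fits without a library. The endothelial list shifted in the same direction, with a median of -0.83 and 4 of 18 genes called lower, and 14 of the 18 lay above tie1. The difference between tie1 and that list was not tested.

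angpt1 went the other way, with a difference of 1.78 ± 0.61 (adjusted p = 0.0458, edgeR), the only member called higher, where 11.4% of all genes were. This call was lost without any of the 3 skin inputs, skin pulldown replicates 1 or 2, muscle pulldown replicates 2 or 3, or muscle input replicates 2 or 3, in fits whose adjusted p ran from 0.0715 to 0.148, and the value stayed between 1.41 and 2.09. Markers of several other cell types were also higher in this difference, though not all. Fibroblasts had a median of 1.06 with 4 of 7 genes called higher, and mural cells 1.48 with 4 of 8. Leukocytes had 1.09 with 3 of 5 called higher and 1 lower, muscle 2.14 with 3 of 8 higher, and erythrocytes 1.45 with 0 of 4. The skin list had a median of 0.17, against 0.24 over all genes. Of its 8 genes 0 were called higher and 1 lower, a call made for 12.4% of all genes. The part of these cell types in the angpt1 difference was not tested. angpt2a had a difference of -1.56 that was not called, but with a block for each lysate it was -1.62 at an adjusted p of 0.0343, and without muscle input replicate 1 it was -2.20 at 0.0385.

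**Figure D3:**
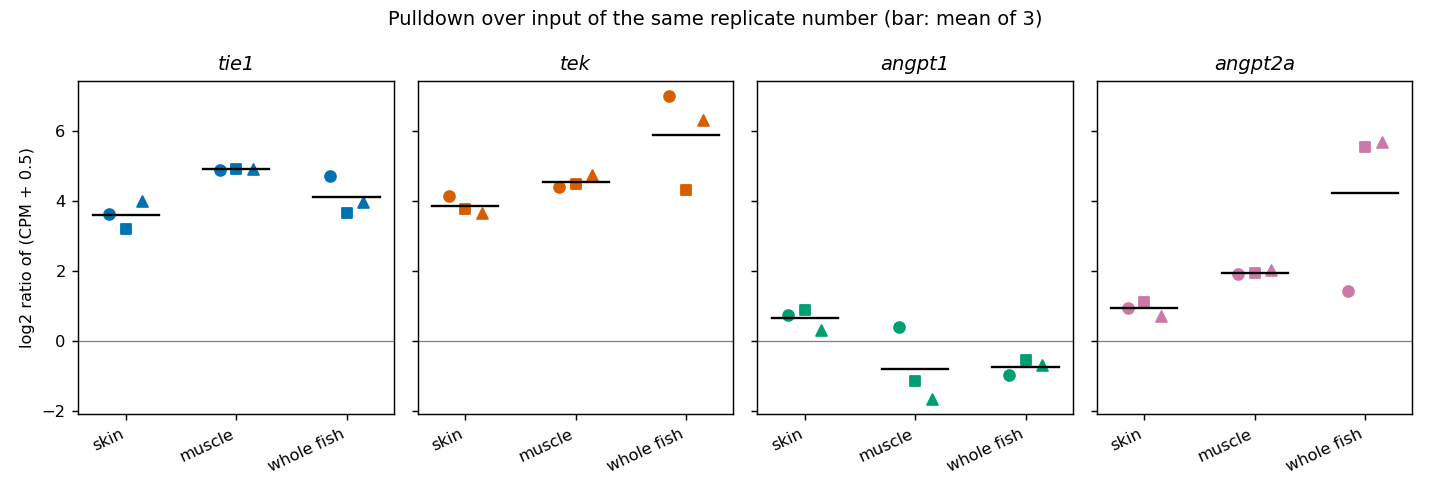
log2 ratio of pulldown to input CPM (0.5 CPM added to each) for libraries of the same replicate number in skin, muscle and whole fish; circle, square and triangle are replicates 1, 2 and 3, and bars are means of 3. tie1 lies at 3.20 to 4.02 in skin and 4.91 to 4.94 in muscle, angpt1 at 0.33 to 0.90 in skin and -1.64 to 0.42 in muscle, and angpt2a in whole fish replicate 1 (1.44) lies apart from replicates 2 and 3 (5.55 and 5.69).

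To compare the pulldowns of different tissues, the 9 pulldown libraries were scaled together and tested two-sided, so CPM in these pulldown comparisons are on that scale. The biological coefficient of variation of this shared fit was 0.735, against 0.273 in the skin fit and 0.327 in the muscle fit. Comparisons of skin with muscle pulldowns therefore also carry the spread of the whole fish pulldowns, including where no difference passed the threshold. In order of mean, tie1 held 42.2 ± 3.35 CPM (SD, n = 3) in skin, 68.6 ± 29.1 in the whole fish and 202 ± 30.9 in muscle. Skin was lower than muscle by a log2 fold change of -2.26 ± 0.37 (adjusted p = 0.00661, edgeR), muscle was higher than the whole fish by 1.56 ± 0.37 (adjusted p = 0.00932), and skin and whole fish did not differ past the threshold (-0.70 ± 0.36, adjusted p = 0.158). Without whole fish pulldown replicate 2 that last difference was -0.94 at an adjusted p of 0.0244. tek held 42.8 ± 10.1 CPM for skin, 174 ± 36.2 for muscle and 260 ± 170 for the whole fish. Its order was the same for skin and muscle, at -2.02 ± 0.52 (adjusted p = 0.0345), but muscle and whole fish did not differ past the threshold (-0.58 ± 0.51, adjusted p = 0.391). tek was lower in skin than in the whole fish by -2.60 ± 0.53 (adjusted p = 0.00529).

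The skin and muscle call of tek was lost without any of the 6 skin and muscle pulldowns, at adjusted p of 0.0819 to 0.142, and stood at 0.000153 when those 6 libraries were fitted without the whole fish. The muscle and whole fish difference of tek was -0.99 at an adjusted p of 0.034 without whole fish pulldown replicate 2. Of the 4 members tested, 2 were called lower in skin than in muscle, against 3.48% of all genes, and none higher, against 7.43%. The endothelial list was lower as well, with 12 of 18 genes called lower, 0 higher and a median of -2.08. The difference between the receptors and that list was not tested.

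The ligands followed another order. angpt1 held 3.38 ± 1.44 CPM in skin and 4.60 ± 1.72 in muscle pulldowns, which did not differ past the threshold (-0.44 ± 0.84, adjusted p = 0.8, edgeR), and 0.105 ± 0.0958 in the whole fish. From 167, 236 and 3 summed counts, skin held 29.6 times the whole fish level (exact 95% interval 9.96 to 145) and muscle 40.8 times (13.8 to 199). These intervals cover counting error only, not the spread between pools. The fitted log2 fold changes were 4.83 ± 1.06 (adjusted p = 0.00696) and 5.28 ± 1.08 (adjusted p = 0.00494), from 4.4 to 5.60 and from 4.80 to 6.01 without whole fish pulldown replicates 2 and 3 in turn. By its means angpt2a was the reverse, with 2.74 ± 0.32 CPM for skin, 4.90 ± 1.36 for muscle and 54.1 ± 44.9 for the whole fish. The whole fish pulldowns held 3.32, 70.5 and 88.6 CPM, so that replicate 1 lay below every muscle pulldown, the lowest at 3.37 CPM. In the fit angpt2a was lower than in the whole fish by -4.30 ± 0.96 in skin (adjusted p = 0.00758, edgeR) and by -3.46 ± 0.93 in muscle (adjusted p = 0.0164).

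The skin value for angpt2a was -4.82 without whole fish pulldown replicate 1 and -3.71 without replicate 3. The muscle call of angpt2a was lost without muscle pulldown replicate 1, 2 or 3 (adjusted p = 0.0544, 0.06 and 0.0717, edgeR) and with the replicate block (-3.21, adjusted p = 0.0582). Between tissues that block ties equal replicate numbers, a link the labels do not give. Against the whole fish pulldown, 1 member was called higher and 2 lower in skin, where 21.9% and 12.9% of all genes were, and 2 higher and 1 lower in muscle, where 20.0% and 15.7% were. Of 18 endothelial list genes, 1 was called higher and 7 lower in skin (median 0.23), and 11 higher and 3 lower in muscle (median 2.20). The comparisons with the whole fish share its 3 pulldown libraries. With library size as the only scaling, the all-gene median went from 0.05 to 0.53 for skin against muscle, from 0.42 to 2.23 for skin against whole fish and from 0.14 to 1.47 for muscle against whole fish. Under that scaling no member was called lower in any of the 3 comparisons, and tie1 in skin against whole fish (1.01) and tek in muscle against whole fish (0.56) changed sign.

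The levels were also read per 1000 counts of the endothelial list within each library, a measure that needs no scaling between libraries. tie1 gave 33.5, 38.3 and 32.6 in the skin pulldowns and 31.4, 34.0 and 28 in the muscle pulldowns. These ranges overlapped, whereas its CPM in the same 6 libraries did not. In the whole fish pulldowns tie1 gave 34.3, 17.2 and 20.5. tek gave 33.4, 32.7 and 38.1 in skin pulldowns and 29.8, 23.4 and 26.7 in muscle pulldowns, with all skin libraries above all muscle libraries. Its whole fish pulldowns gave 136, 35.4 and 89.0, so that replicate 2 lay within the skin range and the other two above it. With CPM scaled within each tissue, the list as a whole summed to 1370 to 1770 CPM in skin pulldowns. The sums were 3640 to 5340 CPM in muscle pulldowns and 1400 to 2920 CPM in whole fish pulldowns. Its genes did not share these sums alike, as cdh5 alone had means of 271, 1310 and 105 CPM in the same order. These within-tissue values show shares of a sum and are not on 1 scale between tissues. On the scale shared by the pulldowns cdh5 had means of 209, 1960 and 160 CPM. The order of tissues by this measure therefore also depends on the make-up of the list. angpt1 ran from 1.22 to 4.07 in skin pulldowns and from 0.384 to 1.21 in muscle pulldowns, ranges that all but touched. angpt2a gave 2.44, 2.75 and 1.70 in skin pulldowns and 1.11, 0.856 and 0.417 in muscle pulldowns, so that skin lay above muscle, the reverse of the order of mean CPM. Its whole fish pulldowns gave 1.56, 32.5 and 19.1, with replicate 1 below all skin libraries.

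The ratio of the receptors within a library was lowest in the whole fish pulldowns. The log2 of tie1 over tek counts was 0.01, 0.23 and -0.22 in skin pulldowns and 0.07, 0.54 and 0.07 in muscle pulldowns. The whole fish pulldowns gave -1.98, -1.04 and -2.12, below each of the other 15 libraries, which ran from -0.65 to 0.89. The whole fish inputs, at 0.46, -0.47 and 0.28, lay within that range. The whole fish pulldowns were also the libraries with the fewest genes detected, 15203 to 17439. How many other gene pairs set them apart in this way was not examined. Transcript lengths were not used, so the ratio compares libraries and does not say which receptor was the more abundant.

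**Figure D4:**
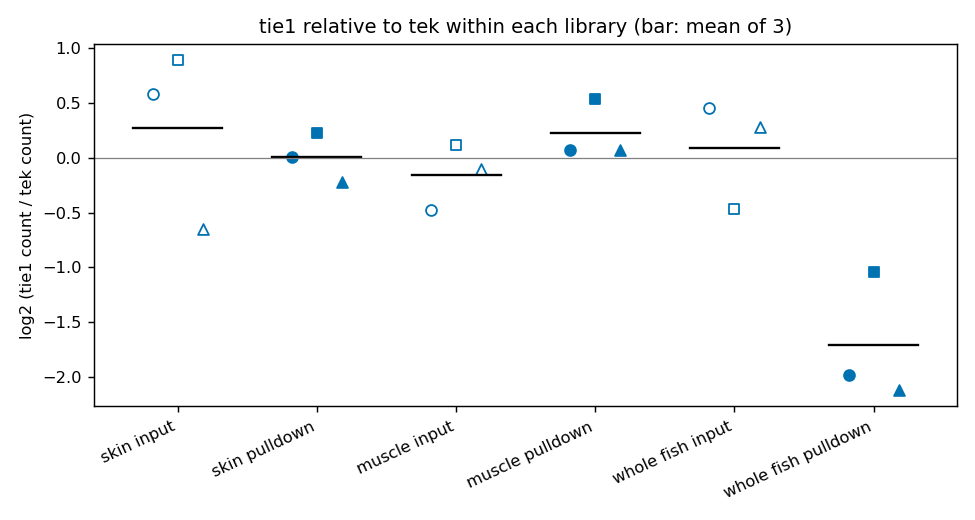
log2 ratio of tie1 to tek counts (y axis) in each library, inputs open and pulldowns filled; circle, square and triangle are replicates 1, 2 and 3, and bars are means of 3. The 3 whole fish pulldowns lie at -2.12 to -1.04, under all other libraries.

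The inputs, which hold the mRNA of the whole tissue, were compared in the same way over their 9 libraries. All 3 of tie1, tek and angpt1 were lower in the skin input than in the muscle input, a call made for 25.9% of all genes, and none of the 4 members tested was higher, a call made for 24.7%. The endothelial list was lower as well, with 13 of 18 genes called lower, 0 higher and a median of -1.41. Of 7 mural genes 5 were called lower and 1 higher (median -1.24), and of 7 fibroblast genes 2 lower and 2 higher (median 0.02). The differences between the members and these lists were not tested. tie1 differed by -1.05 ± 0.36 (adjusted p = 0.0304, edgeR), from 1.84, 2.51 and 1.49 CPM in skin and 3.42, 4.19 and 4.56 CPM in muscle. That call was lost without skin input replicate 1 or 3 or muscle input replicate 2 or 3, at adjusted p of 0.0847, 0.113, 0.0659 and 0.0922. tek differed by -1.45 ± 0.38 (adjusted p = 0.00742). angpt1 showed the widest gap, -2.32 ± 0.43 (adjusted p = 0.000758), with 1.46, 1.32 and 0.775 CPM in skin and 3.29, 6.91 and 7.63 CPM in muscle.

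Muscle input also held more angpt1 than the whole fish input, which had 0.788, 0.268 and 0.582 CPM, by 3.43 ± 0.47 (adjusted p = 9.73e-05, edgeR). It was the only member called there, against 25.4% of all genes called higher, and none was called lower, against 31.3%. Of the endothelial list 14 of 18 genes were called higher and 1 lower there, with a median of 1.66. tek was near the threshold in that comparison (0.95 ± 0.38, adjusted p = 0.0502, edgeR). It passed without skin input replicate 3 (0.96, adjusted p = 0.0441) and without whole fish input replicate 3 (1.24, adjusted p = 0.0295). tek also passed with the replicate block (1.03, adjusted p = 0.0258), which here ties replicate numbers of different tissues that the labels do not link. tie1 passed only without whole fish input replicate 3 (1.19, adjusted p = 0.0134). Between skin and whole fish inputs no member was called, where 21.7% of all genes were higher and 25.2% lower, and 1 member, angpt1, had an unadjusted p under 0.05 (1.11 ± 0.48, adjusted p = 0.0741, edgeR). It passed without muscle input replicate 1 (adjusted p = 0.0481). angpt2a did not differ past the threshold between any pair of inputs. With library size alone the median of all genes for skin against muscle inputs moved from 0 to 1.5, tie1 and tek turned to 0.50 and 0.08, and no member was called lower.

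A list of 50 genes of Tie signalling was read beside the members, of which 41 were matched. From here on CPM are again scaled by TMM within a tissue, so levels of different tissues are not on 1 scale. In skin 14 of 37 tested were called higher and 1 lower, where 21.5% and 18.2% of all genes were, with a median log2 fold change of 0.59 against 0.04 over all genes. In muscle 19 of 35 were called higher and 1 lower, where 22.8% and 21.0% of all genes were, with a median of 1.64 against 0.07. The whole fish had 5 higher and 3 lower of 35, where 11.3% and 15.5% of all genes were called, and a median of 0.45 against -0.09. Without whole fish input replicate 1, 2 or 3 the whole fish counts were 1 higher and 1 lower. The gene ecscr is in both this list and the endothelial list. Of the endothelial list, 16 of 18 genes were called higher in skin, 17 of 18 in muscle and 13 of 17 in the whole fish. Its medians of 3.26, 3.99 and 3.98 were above those of the pathway list. The part of general endothelial capture in the pathway counts was not tested.

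Among the modulators, ptprb, whose mammalian product (VE-PTP) dephosphorylates Tek, was called higher in each tissue. Skin pulldowns held 70.3, 99.7 and 117 CPM, muscle pulldowns 183, 187 and 258 CPM, and whole fish pulldowns 19.6, 36.5 and 31.9 CPM. The inputs of ptprb lay between 1.39 and 10.8 CPM, below every pulldown of the same tissue. That order was seen for 33.8% of all genes tested in skin, 33.4% in muscle and 18.6% in whole fish. The log2 fold changes of ptprb, 4.59 ± 0.34, 4.66 ± 0.32 and 4.27 ± 0.51, were the largest of the list in each tissue and were all called (adjusted p = 3.58e-06, 4.12e-06 and 0.00149, edgeR).

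svep1 encodes an extracellular matrix protein that binds Tie1 in mammals. It was called higher in skin, with 25.6, 51.0 and 22.7 CPM in pulldowns and 6.49, 6.85 and 4.34 CPM in inputs (2.49 ± 0.33, adjusted p = 0.000118, edgeR). In muscle svep1 held 7.29, 6.86 and 4.14 CPM in pulldowns and 3.90, 3.84 and 4.54 CPM in inputs, which overlapped (0.57 ± 0.30, adjusted p = 0.121), and in the whole fish the log2 fold change was 0.45 ± 0.98. Its enrichment was higher in skin than in muscle by 1.95 ± 0.45 (adjusted p = 0.00604), opposite in sign to tie1, and stayed at 1.5 to 2.12 when any library was left out. In the same difference the mural list had a median of 1.48, the fibroblast list 1.06 and the endothelial list -0.83. The part of these cell types in the svep1 difference was not tested. angpt4, a further angiopoietin, had at most 15 counts in any library apart from 43 in whole fish pulldown replicate 3, and did not pass the filter in any tissue.

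Downstream of the receptors, 9 of 25 adaptor and kinase genes were called higher for skin, 11 of 22 for muscle and 2 of 23 for the whole fish, beside 21.5%, 22.8% and 11.3% of all genes. Named after their values were seen, the adaptor genes shc1, at 1.24 in skin and 2.11 in muscle, and gab1, at 2.27 and 2.17, were called in both organs (adjusted p up to 0.000325, edgeR). tnip2, whose mammalian product (ABIN-2) binds Tek, was called lower in skin (-1.45 ± 0.37, adjusted p = 0.00595) and muscle (-1.62 ± 0.49, adjusted p = 0.0179), the only gene of the list called lower in these organs. Its counts were 12, 22 and 23 in skin pulldowns and 38, 57 and 68 in skin inputs, and 10, 31 and 19 in muscle pulldowns against 46, 18 and 28 in muscle inputs, where counts overlapped but CPM did not. Pulldown CPM lay below input CPM without overlap for 32% of all genes tested in skin and 29.2% in muscle. The muscle call of tnip2 was lost without muscle pulldown replicate 1 or muscle input replicate 1 or 3, at adjusted p of 0.0544, 0.0771 and 0.0501. In the whole fish the lowest was dok1a, related to the Tek adaptor Dok2, with 0 counts in all pulldowns and 38, 23 and 36 in the inputs, at least 18.2-fold lower against a floor of 3 counts over the group, on the TMM scale. The other 2 called lower there were elk1 and elf1, and with the replicate block none of the 3 was called.

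Of the 7 transcription factors tested, 1 was called higher in skin, 4 in muscle and 0 in whole fish, beside 21.5%, 22.8% and 11.3% of all genes. In the whole fish 2 of the 7, elk1 and elf1, were called lower, a call made for 15.5% of all genes. foxo1a encodes a factor that Akt restrains downstream of Tek in mammals, where it promotes Angpt2. It held 109, 122 and 103 CPM in skin pulldowns against 63.4, 59.8 and 54.6 CPM in inputs, and its log2 fold change of 0.91 ± 0.19 was under the minimum (adjusted p = 0.0019, edgeR). In muscle foxo1a was called higher, at 156, 152 and 134 CPM against 46.9, 43.2 and 47.2 CPM (1.68 ± 0.22, adjusted p = 0.000128), and the whole fish value was -0.17 ± 0.47. Its difference between skin and muscle enrichment, -0.73 ± 0.27, did not pass (adjusted p = 0.0655). Its paralog foxo1b had 0 counts in the 3 muscle inputs and 7, 9 and 29 in the pulldowns, at least 7.28-fold higher against a floor of 3 counts over the group, on the TMM scale.

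klf2a and klf2b, named here after their values were seen, encode flow-responsive factors. In muscle both were called higher, klf2a at 423, 382 and 395 CPM in pulldowns against 43.2, 34.2 and 29.6 CPM in inputs (3.49 ± 0.27, adjusted p = 6.66e-06, edgeR) and klf2b at 195, 129 and 318 CPM against 9.35, 7.68 and 11.4 CPM (4.49 ± 0.39, adjusted p = 1e-05). In skin klf2a held 418, 151 and 139 CPM in pulldowns and 682, 174 and 162 CPM in inputs, which overlapped (-0.52 ± 0.57), and klf2b gave 0.15 ± 0.29, also with overlap. Skin libraries of replicate 1 were the highest for klf2a in both fractions. The difference, skin minus muscle, was -3.96 ± 0.73 for klf2a (adjusted p = 0.00163) and -4.30 ± 0.51 for klf2b (adjusted p = 0.000102). The skin input was higher than the muscle input for both genes, by 2.14 ± 0.69 (adjusted p = 0.0219) and 1.72 ± 0.29 (adjusted p = 0.000454).

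**Figure D5:**
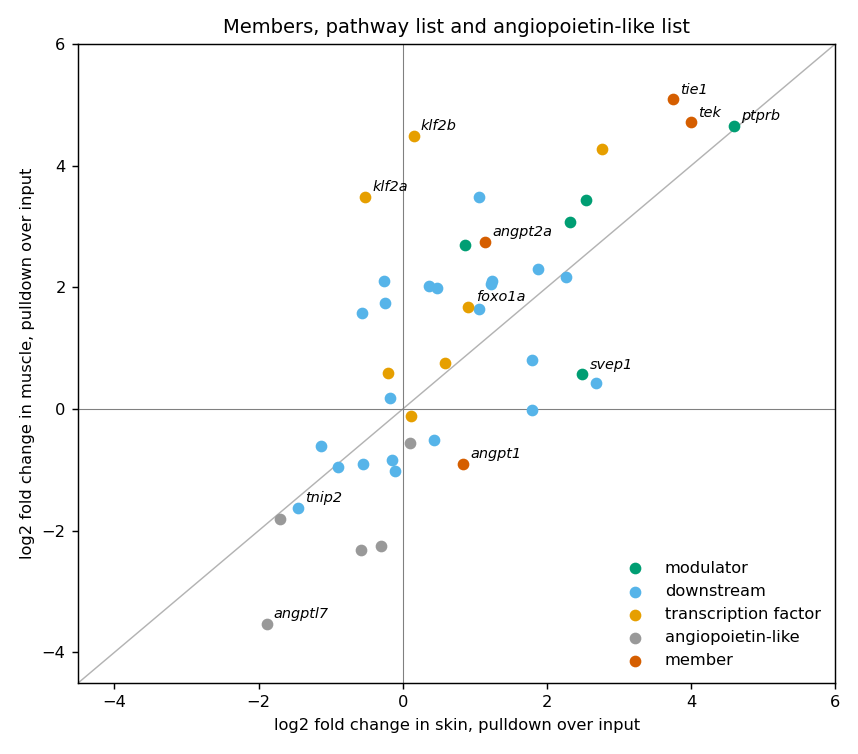
log2 fold change of pulldown over input in skin (x axis) and muscle (y axis) for the members, the pathway list by role and the angiopoietin-like list; the diagonal marks equal values. tie1, tek and ptprb lie at the upper right, klf2a and klf2b at 3.49 and 4.49 in muscle near 0 in skin, and angptl7 at the lower left.

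The angiopoietin-like genes share the fibrinogen-like domain of the angiopoietins but do not bind the Tie receptors. None of the 5 tested in each tissue was called higher, a call made for 21.5% (skin), 22.8% (muscle) and 11.3% (whole fish) of all genes. The number called lower was 2 for skin, 4 for muscle and 0 for the whole fish, beside 18.2%, 21.0% and 15.5% of all genes. In whole fish, angptl7 had the lowest value at -4.06 (adjusted p = 0.0733). angptl7 was the lowest in both organs, at 15.1, 12 and 14.5 CPM in skin pulldowns against 37.6, 50.9 and 65.1 CPM in inputs (-1.89 ± 0.24, adjusted p = 9.17e-05, edgeR). In muscle angptl7 held 6.06, 4.68 and 6.82 CPM in pulldowns against 62.9, 55.7 and 84.3 CPM in inputs (-3.53 ± 0.28, adjusted p = 1.45e-05), and the difference between the organs was 1.69 ± 0.36 (adjusted p = 0.00401). angptl2a was the least lowered of those called, at -1.70 ± 0.53 in skin and -1.80 ± 0.49 in muscle (adjusted p = 0.0181 and 0.011). Its skin call was lost without skin input replicate 3 (-1.5, adjusted p = 0.0693) and without both skin libraries of replicate 2 (-1.89, adjusted p = 0.053).

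Across the 18 libraries, the genes most like each member were taken from 11748 others by Pearson's r of log2 CPM, as a description. tie1 lay closest to si:dkeyp-23e4.3 (0.992), PTPRG (0.989) and TNS1 (0.986), and its r with tek was 0.96. tek lay closest to LDB2 (0.976), COL4A1 (0.975) and myct1b (0.972). For angpt1 the nearest were si:dkey-100j22.4 (0.941), CTDSPL (0.933) and LPAR1 (0.928), and its r with tie1 was -0.04. angpt2a lay nearest to MED19 (0.963), CWC25 (0.945) and polr1g (0.941), and its r was 0.72 with tek and -0.58 with angpt1. The libraries share fraction, tissue and depth differences that enter every r, and symbols in capitals are those of the reference table.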

How the data were processed

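The authors made poly(A)-selected, non-directional SMART-seq V4 libraries and deposited raw counts per gene, after trimming (cutadapt) and alignment (hisat2) to GRCz11 with an Ensembl annotation. The counting program is not given in the sources used here. Of the deposited columns, 18 were used and 18 were not, because no label ties their letters to an organ. The skin replicate 2 columns, lettered otherwise, were given to skin as the only tissue lacking a replicate 2.

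Members and lists were chosen with earlier results of these data known. For 4 members the identifier came from the reference symbols and for angpt2a from a table of the study. Reads on paralogs could be shared, and without strand, reads of overlapping antisense genes cannot be told apart.

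Counts were filtered with filterByExpr, scaled by TMM and fitted in edgeR 4.0.16 (R 4.3.3), per tissue without a block, with Benjamini-Hochberg adjustment over all genes tested. Each standard error is the log2 fold change divided by the root of its F value. Pulldowns, inputs and the skin and muscle interaction were fitted over 9, 9 and 12 libraries. p-values measure the spread between these pools. Replicates differed by more than counting noise. DESeq2 1.42.0, other scalings and filters, the replicate block, a joint fit and leaving out each library were tried as alternatives; leaving out both skin replicate 2 libraries, a block per lysate and fits of skin and muscle alone were added after seeing the data. In fits over several tissues the replicate block ties equal numbers of different tissues, which the labels do not link. The scripts were tested on simulated data.

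Replicate numbers pair the lysates: with group means removed, the gene-wise correlation of pulldown and input sharing a number was 0.39 to 0.43 (skin), 0.37 to 0.49 (muscle) and 0.17 to 0.19 (whole fish), against -0.36 to -0.05 for different numbers. Removing the means makes the values for different numbers negative on average wherever those for a shared number are positive, so they add no separate evidence.

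The text names the members; ptprb, svep1 and the foxo1 pair; the largest and smallest called changes of the pathway and angiopoietin-like lists in each tissue; and the 3 genes most like each member among those with a mean of at least 50 counts (prior count 2). Other genes were named after their values were seen.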

Additional observations from a re-analysis of the deposited data

Results flagged for a closer look

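Enrichment differed between skin and muscle, by the interaction test in edgeR, for 2 members and 4 listed genes. Skin minus muscle was -1.3 for tie1 and 1.78 for angpt1. Among the listed genes it was 1.95 for svep1, -3.96 for klf2a, -4.3 for klf2b and 1.69 for angptl7. The median over all genes tested was 0.24 and over the endothelial list -0.83. For klf2a, klf2b and angptl7 the difference kept its sign and its call without any of the 12 libraries in turn, as it did for tie1 and svep1. The call of angpt1 was lost in 9 of these 12 fits.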

How the results depend on the processing

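Over the alternatives, 529 of 595 member values kept their direction and side of the threshold, 36 lost a call, 19 gained it and 11 changed sign. For the other genes named it was 336, 17, 2 and 10 of 365, and 328 of 396 counts of calls stayed within 1.5 times. Leaving out single libraries and scaling by library size alone each changed calls or signs. Library size alone moved the median of all genes by over 0.1 in all comparisons. It gave, within tissues, angpt1 1.68 and angpt2a 1.97 in skin (4 members higher), angpt1 0.95 in muscle and angpt2a 5.10 in the whole fish; klf2a 0.36 in skin, tnip2 0.02 in muscle and svep1 -0.28 in the whole fish; pathway genes lower, 0 in skin and muscle and 5 in the whole fish, where 1 was higher. Between pulldowns it gave tie1 -1.75, tek -1.51 and angpt1 0 for skin against muscle, tie1 1.01, tek -0.95 and angpt2a -2.49 for skin against whole fish, and tek 0.56 and angpt2a -2.11 for muscle against whole fish, with 0 members lower in each. Between inputs it gave tie1 0.50, tek 0.08, angpt1 -0.72 and angpt2a 2.08 for skin against muscle (1 higher, 0 lower), tie1 0.07 and angpt1 1.49 for skin against whole fish (1 higher), and tie1 -0.44, tek -0.16 and angpt2a -1.44 for muscle against whole fish (1 lower). The difference between skin and muscle enrichment was -1.59 for tek, 0.73 for angpt1 and -2.46 for angpt2a (0 higher, 3 lower). The cause was not tested.

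With 10 counts in every library, angpt2a was 1.23 in skin, members higher were 0 for skin and 1 for muscle against whole fish pulldowns and 0 for muscle against whole fish inputs, where angpt1 no longer entered the test, and 1 pathway gene was lower in the whole fish. With the replicate block, angpt2a was -3.21 (0 members lower) for muscle against whole fish pulldowns, tek 1.03 (2 higher) for muscle against whole fish inputs, svep1 -0.03 and 0 pathway genes lower in the whole fish; it changed no other member call. With a joint fit, pathway genes were 9 higher and 0 lower in skin, 0 lower in muscle, and 8 higher and 6 lower in the whole fish, where 1 member was lower. DESeq2 called 5 pathway genes lower in the whole fish. Without both skin libraries of replicate 2, the difference in enrichment was -1.03 for tie1 and 1.68 for angpt1 (0 higher, 0 lower), and klf2b in skin was -0.06. With a block for each lysate it was -1.62 for angpt2a (2 lower).

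Without each library in turn, within tissues, angpt1 ran from -1.22 to -0.67 in muscle, angpt2a from 1.03 to 1.2 in skin and 5.38 to 6.56 in the whole fish, klf2a from -1.27 to 0.46 and klf2b from -0.13 to 0.51 in skin, and foxo1a from -0.60 to 0.09 and svep1 from -0.02 to 0.86 in the whole fish. Members lower ran from 0 to 1 in muscle and whole fish; pathway genes lower from 1 to 2 (skin), 0 to 1 (muscle) and 1 to 4 (whole fish), and higher from 1 to 7 (whole fish). Between pulldowns, tek ran from -2.22 to -1.81 for skin against muscle (1 to 2 lower) and -0.99 to -0.05 for muscle against whole fish, angpt2a from -4.02 to -2.91 there (0 to 2 lower), and tie1 from -0.94 to -0.33 for skin against whole fish. Between inputs, tie1 ran from -1.28 to -0.88 for skin against muscle, -0.58 to 0.14 for skin against whole fish and 0.47 to 1.19 for muscle against whole fish, where tek ran from 0.62 to 1.24 and angpt2a from -0.89 to 0.02 (1 to 3 higher), and angpt1 from 0.77 to 1.49 for skin against whole fish (0 to 1 higher). The difference in enrichment ran from 1.41 to 2.09 for angpt1 (0 to 1 higher) and -2.20 to -1.28 for angpt2a (1 to 2 lower). Members at few counts, angpt2b throughout and angpt1 in the whole fish, are limited by depth.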
